A study of Mus musculus with 6 samples.

Results

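The genes of the pentose phosphate pathway and of the enzymes that supply NADPH were followed in mouse liver RNA. The set held 10 genes, chosen by name from the deposited gene table: G6pdx, Pgls, Pgd, Rpia, Tkt, Taldo1, H6pd, Idh1, Idh2 and Nnt. They corresponded to 11 of 55401 gene models, because 2 models carry the name Nnt, and all 11 were among the 14741 models tested. Male, chow-fed C57BL/6 mice aged 8 weeks had received intraperitoneal 9/13-HODEs, in which 9-HODE and 13-HODE were mixed in equal parts, at 0.5 µg per g body weight daily for 9 days. HODEs are hydroxylated products of linoleic acid. The Ctrl mice received the solvent, a mixture of polyethylene glycol and water, on the same schedule. No transgene or targeted allele is given for either group, and 3 livers per group were sequenced, with 1 library per mouse. The comparison asks how the treatment bears on liver gene expression, here on the genes that make NADPH.

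NADPH is the reductant of fatty acid and cholesterol synthesis and of glutathione and thioredoxin recycling. In the cytosol of hepatocytes it is made by the oxidative branch of the pentose phosphate pathway (G6pdx, Pgd), by malic enzyme (Me1) and by isocitrate dehydrogenase (Idh1). Idh2 and Nnt make it in mitochondria, H6pd makes it in the lumen of the endoplasmic reticulum, and the non-oxidative enzymes Rpia, Tkt and Taldo1 return pentose phosphates to glycolysis.

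Each library held between 70300597 and 78615288 counts, and the members took 0.104% to 0.120% of them. Over all tested models, 3 (0.0204%) had a Benjamini-Hochberg adjusted p under 0.05 by edgeR's quasi-likelihood test, and 1133 (7.69%) had an unadjusted p under 0.05, of which 601 (4.08%) were higher and 532 (3.61%) lower after treatment. The groups did not overlap in FPKM, the deposited read density scaled by gene length and library depth, for 2226 models (15.1%), of which 779 (5.28%) were higher after treatment. Mitochondrial transcripts took 6.70% to 9.51% of counts in Ctrl and 10.5% to 11.9% in treated livers, and their part in the results was not tested. In bulk tissue, fewer cells of a type and less RNA per cell cannot be told apart.

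By FPKM, which allows levels to be set side by side between genes, Idh1 was the most abundant member, with 83.2 to 105 FPKM over the 6 libraries. Taldo1 followed with 60.1 to 86.5 FPKM, so both ranges overlapped. H6pd came next at 40.6 to 57.7 FPKM, below every Taldo1 value. Tkt (19.9 to 29.7 FPKM), Idh2 (17.2 to 26.1 FPKM) and Pgls (13.1 to 23.1 FPKM) formed a middle tier whose neighbours overlapped. Pgd (4.43 to 8.03 FPKM) and G6pdx (0.740 to 5.996 FPKM) overlapped each other below it, and Rpia, at 0.468 to 1.03 FPKM, had the lowest mean and reached into the range of G6pdx. Nnt is left out of this order because of its 2 gene models. Both dehydrogenases of the oxidative branch were thus among the less abundant members in FPKM. This order depends in part on the gene length that FPKM divides by, which here runs over all exons of a gene. For Tkt that length is 2.28 times the longest transcript, for H6pd 1.103 times. Divided by the longest transcript, Taldo1 passed Idh1 (132 against 122 CPM per kilobase, where CPM is counts scaled to equal library depth) and Tkt passed H6pd (64.7 against 57.6).

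**Figure D1:**
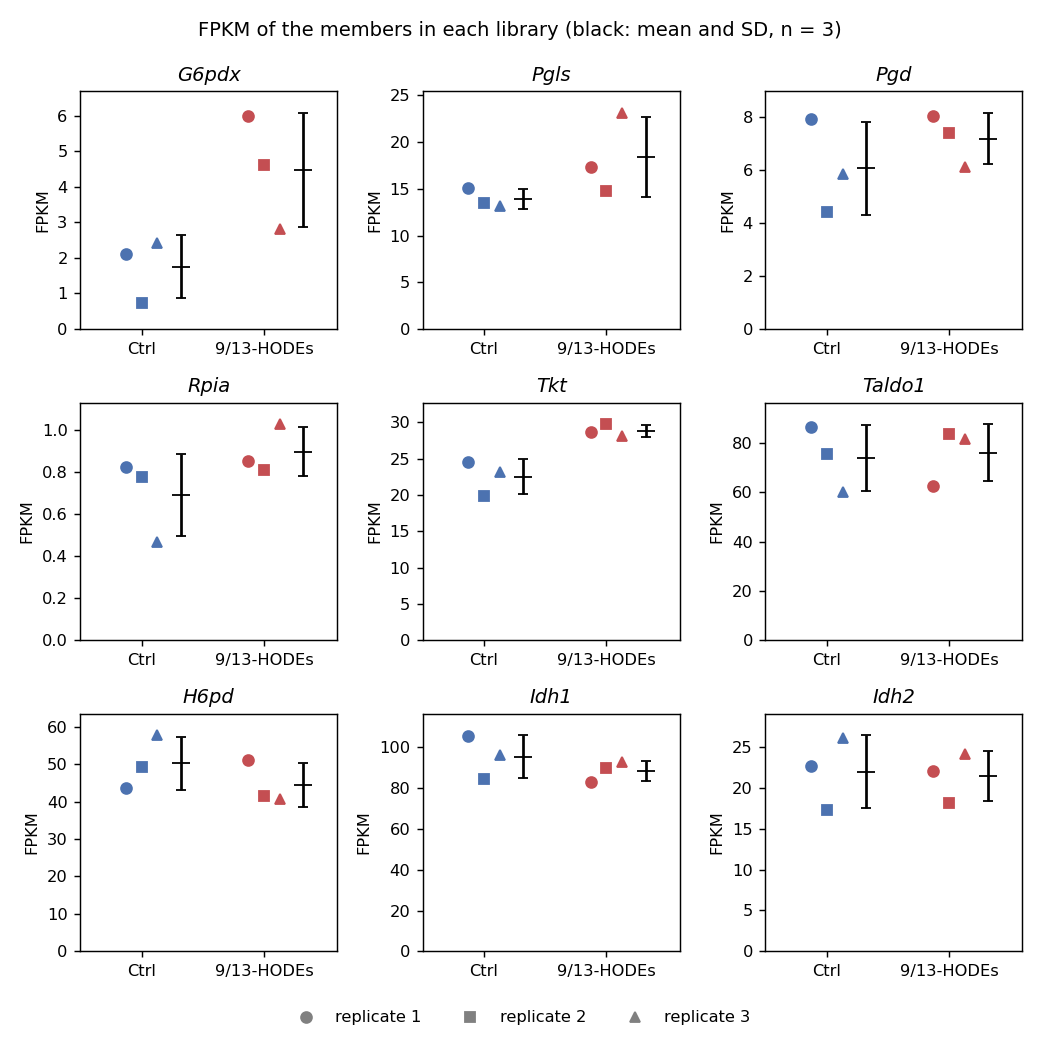
FPKM of 9 members (y axis, from 0) in the 3 Ctrl (blue) and 3 treated livers (red), with marker shapes for replicate numbers and the mean and SD in black. The treated libraries lie above all Ctrl libraries for G6pdx and Tkt, and the groups overlap for the other 7 genes.

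G6pdx encodes glucose 6-phosphate dehydrogenase, the committed and rate-limiting step of the pathway (X:74409483-74429194 in GRCm38, minus strand). Its promoter is shown because G6pdx had the greatest difference of the members with 1 gene model, and that of Tkt because it was the other member whose groups did not overlap. Each stretch covers the 250 bases before a RefSeq transcription start in GRCm38.p6, at X:74428881-74429130 (minus strand) for G6pdx and 14:30548881-30549130 (plus strand) for Tkt. Both stretches lie inside the gene models given here, which begin further upstream, at X:74429194 for G6pdx and 14:30548359 for Tkt. Capitals mark the match to TGACNNNGC, the core of the antioxidant response element bound by NRF2, which in G6pdx lies on the opposite strand.
G6pdx: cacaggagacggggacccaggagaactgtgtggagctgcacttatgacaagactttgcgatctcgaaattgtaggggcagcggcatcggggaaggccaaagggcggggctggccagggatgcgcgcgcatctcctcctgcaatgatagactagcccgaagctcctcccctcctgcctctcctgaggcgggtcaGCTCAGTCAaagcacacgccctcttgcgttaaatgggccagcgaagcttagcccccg
Tkt: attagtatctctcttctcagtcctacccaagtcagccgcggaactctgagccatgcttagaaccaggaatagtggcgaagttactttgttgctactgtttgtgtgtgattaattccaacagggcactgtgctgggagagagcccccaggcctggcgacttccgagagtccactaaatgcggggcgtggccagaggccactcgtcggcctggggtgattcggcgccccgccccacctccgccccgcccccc
The search covered both strands of windows that also held the 50 bases after the start. The element was present in 2 of 11 windows from 9 members, G6pdx at -57 and Pgd at 4 bases from the start, and in 12.4% of all 32851 RefSeq windows. The SREBP element TCACNCCAC (1.24% of all windows) and the E-box CACGTG (7.15%) had no match in the members' windows. A match is a description of the letters alone.

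G6pdx FPKM was 2.11, 0.740 and 2.41 in Ctrl and 5.996, 4.62 and 2.80 after treatment. The groups did not overlap, although the lowest treated and the highest Ctrl value were close and Ctrl replicate 2 stood well below the other Ctrl livers. The means were 1.75 ± 0.888 FPKM (SD, n = 3) in Ctrl and 4.47 ± 1.603 FPKM (SD, n = 3) after treatment. The log2 fold change was 1.43 (SE 0.447, 95% interval 0.36 to 2.49), with an unadjusted p of 0.0164 and an adjusted p of 0.649 by edgeR's quasi-likelihood test. The difference therefore did not pass the adjusted threshold, and DESeq2 gave an adjusted p of 0.0881. G6pdx was the single member past both a log2 ratio of mean FPKM of 0.65 and an unadjusted p of 0.05 in edgeR, a rule met by 458 tested models (3.11%). Left out in turn, the libraries gave log2 fold changes from 1.07 without Ctrl replicate 2 to 1.69 without Ctrl replicate 3, and without 9/13-HODEs replicate 1 the unadjusted edgeR p was 0.0524 with a log2 fold change of 1.16.

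Counts behind these G6pdx values were 526, 179 and 609 in Ctrl and 1450, 1200 and 755 after treatment. G6pdx lies wholly within the span of Ikbkg, a gene of NF-κB signalling on the opposite strand. Ikbkg counts were 122, 96 and 156 in Ctrl and 71, 1513 and 146 after treatment. Only treated replicate 2 was high for Ikbkg, and whether strand was used in counting is not given in the sources used here. Without that library the log2 fold change of G6pdx was 1.43. G6pd2, a retrogene copy with 93.2% identity over 2332 bases, had 0 counts in every library.

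Pgls encodes 6-phosphogluconolactonase, the second step of the oxidative branch (8:71592176-71601092, plus strand). Its FPKM was 15.1, 13.5 and 13.1 in Ctrl and 17.4, 14.7 and 23.1 after treatment. Treated replicate 3 was the highest, and treated replicate 2 lay below Ctrl replicate 1, so the groups overlapped. For Pgls edgeR gave a log2 fold change of 0.48 (SE 0.208, 95% interval -0.02 to 0.98), with an adjusted p of 0.655 in its quasi-likelihood test (unadjusted p of 0.0561). It was 0.23 without treated replicate 3, and without treated replicate 2 it was 0.65 with an unadjusted edgeR p of 0.0129. Fam129c overlaps Pgls on the same strand, with at most 40 counts in a library.

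Pgd encodes 6-phosphogluconate dehydrogenase, which makes the second NADPH of the branch (4:149149991-149166707, minus strand). Its FPKM was 7.94, 4.43 and 5.86 in Ctrl and 8.03, 7.42 and 6.14 after treatment. The groups overlapped, with Ctrl replicate 1 near the highest treated liver and Ctrl replicate 2 the lowest of all. The log2 fold change was 0.31 (SE 0.208, 95% interval -0.19 to 0.81), with an adjusted p of 0.739 by edgeR's quasi-likelihood test. It ran from 0.15 without Ctrl replicate 2 to 0.56 without Ctrl replicate 1, where the unadjusted edgeR p was 0.0114.

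Summed over G6pdx, Pgls and Pgd, the oxidative branch reached 25.1, 18.7 and 21.4 FPKM in Ctrl and 31.4, 26.8 and 32.0 FPKM after treatment. All treated livers were above all Ctrl livers, and Pgls supplied most of each sum. Per library, FPKM of Pgd was 3.77, 5.99 and 2.43 times that of G6pdx in Ctrl and 1.34, 1.6 and 2.19 times after treatment. The ratio was thus lower in every treated liver, with values near each other for Ctrl replicate 3 and treated replicate 3. It is divided by G6pdx, whose groups did not overlap, and is not a separate result.

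Rpia encodes ribose 5-phosphate isomerase, which opens the non-oxidative branch (6:70765720-70792232, minus strand). Its FPKM was 0.827, 0.778 and 0.468 in Ctrl and 0.853, 0.808 and 1.03 after treatment. Ctrl replicate 3 was low and treated replicate 3 high, with the other livers close together and the groups overlapping. The fitted log2 fold change of Rpia was 0.44 (SE 0.288, 95% interval -0.25 to 1.13), with an adjusted p of 0.732 by edgeR's quasi-likelihood test, and it was 0.20 without Ctrl replicate 3.

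Tkt encodes transketolase, the 2-carbon transferase that links the pathway to glycolysis (14:30548359-30574720, plus strand). Its FPKM was 24.5, 19.9 and 23.2 in Ctrl and 28.7, 29.7 and 28.1 after treatment. The treated livers lay close together and above every Ctrl liver. The means were 22.5 ± 2.40 FPKM (SD, n = 3) and 28.8 ± 0.835 FPKM (SD, n = 3). The log2 fold change was 0.42 (SE 0.0969, 95% interval 0.19 to 0.66), with an unadjusted p of 0.00364 and an adjusted p of 0.649 by edgeR's quasi-likelihood test. DESeq2 gave an adjusted p of 0.141. With each library left out in turn the log2 fold change of Tkt stayed between 0.37 and 0.50, and the unadjusted edgeR p was at most 0.0141.

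Taldo1 encodes transaldolase, the other enzyme of carbon exchange in this branch (7:141392199-141402968, plus strand). Its FPKM was 86.5, 75.5 and 60.1 in Ctrl and 62.7, 83.7 and 81.9 after treatment. High and low livers occurred in both groups. On the log2 scale the difference was 0.10 (SE 0.192, 95% interval -0.36 to 0.56), with an adjusted p of 0.909 by edgeR's quasi-likelihood test. A near-identical gene model, Gm17823 (94.7% identity over 923 bases), had at most 28 counts in a library.

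FPKM of Taldo1 was 3.52, 3.80 and 2.59 times that of Tkt in Ctrl and 2.18, 2.82 and 2.92 times after treatment, with overlapping groups. The sum of Tkt, Taldo1 and Rpia, at 112, 96.1 and 83.7 FPKM in Ctrl and 92.3, 114 and 111 FPKM after treatment, overlapped as well.

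H6pd encodes hexose 6-phosphate dehydrogenase, which carries out the first oxidative steps inside the endoplasmic reticulum and feeds NADPH to 11β-hydroxysteroid dehydrogenase (4:149979475-150009023, minus strand). Its FPKM was 43.6, 49.2 and 57.7 in Ctrl and 51.2, 41.5 and 40.6 after treatment. Treated replicate 1 lay within the Ctrl range and the other treated livers below it. The fitted log2 fold change of H6pd was -0.11 (SE 0.135, 95% interval -0.43 to 0.22), with an adjusted p of 0.861 by edgeR's quasi-likelihood test. FPKM of H6pd was 20.7, 66.5 and 24.0 times that of G6pdx in Ctrl and 8.54, 8.97 and 14.5 times after treatment. All treated ratios were lower than all Ctrl ratios, and the Ctrl ratios spread widely. G6pdx, whose own groups did not overlap, is the divisor, so this is not a result separate from that of G6pdx.

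Genes of the endoplasmic reticulum listed beside H6pd were read as well. Hsd11b1, which uses its NADPH to regenerate corticosterone, had 67.3, 73.5 and 108 FPKM in Ctrl and 62.0, 150 and 64.1 FPKM after treatment. The 3 treated livers thus spanned the Ctrl range on both sides, and the log2 fold change was 0.21 (95% interval -0.63 to 1.04). Slc37a4, the transporter that carries glucose 6-phosphate into the lumen, had 33.7, 28.5 and 52.6 FPKM in Ctrl and 59.1, 38.8 and 28.1 FPKM after treatment, with a log2 fold change of 0.20 (95% interval -0.51 to 0.92). Cyb5r3, a cytochrome b5 reductase, had 164, 118 and 169 FPKM in Ctrl and 183, 170 and 188 FPKM after treatment. Its groups did not overlap, although Ctrl replicate 3 and treated replicate 2 were nearly equal, and its log2 fold change was 0.34 (95% interval -0.03 to 0.70). Higher values without overlap occurred in 5.28% of all tested models. Of 5 genes in this list 4 were tested, all 4 had a positive log2 fold change and none had an unadjusted p under 0.05. The list is not limited to genes that use the NADPH of H6pd.

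Idh1 encodes the NADP-dependent isocitrate dehydrogenase of cytosol and peroxisomes (1:65158616-65186500, minus strand). Its FPKM was 105, 84.5 and 96.3 in Ctrl and 83.2, 90.1 and 92.6 after treatment. All treated livers but replicate 1 lay within the Ctrl range. On the log2 scale the difference was -0.04 (SE 0.117, 95% interval -0.32 to 0.24), with an adjusted p of 0.962 by edgeR's quasi-likelihood test. Idh2, its mitochondrial counterpart (7:80094846-80115392, minus strand), had 22.6, 17.2 and 26.1 FPKM in Ctrl and 21.99, 18.2 and 24.1 FPKM after treatment. All treated values of Idh2 lay inside the Ctrl range. Its log2 fold change was 0.05 (SE 0.182, 95% interval -0.39 to 0.48), with an adjusted p of 0.970 by edgeR's quasi-likelihood test. The intervals leave room for changes of either sign in both genes. FPKM of Idh1 was between 3.70 and 4.90 times that of Idh2 in Ctrl and between 3.78 and 4.96 times after treatment.

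Nnt encodes the inner mitochondrial membrane transhydrogenase that makes NADPH from NADH at the expense of the proton gradient. The table lists it under 2 gene models on the minus strand of chromosome 13, at 119335448-119408997 and at 119335528-119408952. The second model holds 1 transcript whose 3339 bases align with 100% identity to the first, so reads on these bases cannot be told apart between the models. The first model had 1601, 331 and 122 counts in Ctrl and 1562, 1531 and 1594 after treatment. The second had 0, 0 and 2249 counts in Ctrl and 0 in every treated library. In Ctrl replicate 3, 94.9% of all Nnt counts were therefore listed under the second model, and that replicate was low in the first model.

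Summed over both models, Nnt had 21.4, 4.76 and 29.8 CPM in Ctrl and 22.3, 19.7 and 21.9 after treatment. Ctrl replicate 2 was far below the others, while the treated livers were within 1.13 times of each other and inside the Ctrl range, whose highest value was 6.26 times its lowest. The log2 fold change of the sum was 0.19 (SE 0.570, 95% interval -1.18 to 1.55), with an adjusted p of 0.959 by edgeR's quasi-likelihood test, and it turned to -0.27 without Ctrl replicate 2. The first model alone gave 1.20 (SE 0.834) with an adjusted p of 0.747 by the same edgeR test, and 2.76 without Ctrl replicate 1. A deletion within Nnt is known in the C57BL/6J substrain. The sources used here give the mice as C57BL/6, and gene-level counts do not show which exons were read.

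**Figure D2:**
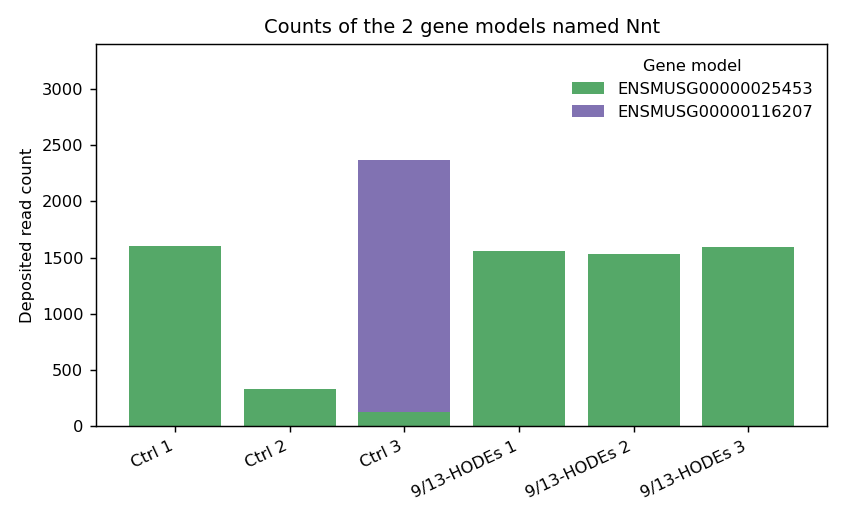
Deposited read counts (y axis, from 0) of the 2 gene models named Nnt, stacked for each of the 6 libraries on the x axis. Counts of the second model occur in Ctrl replicate 3 alone (2249), and Ctrl replicate 2 has the smallest total (331).

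**Figure D3:**
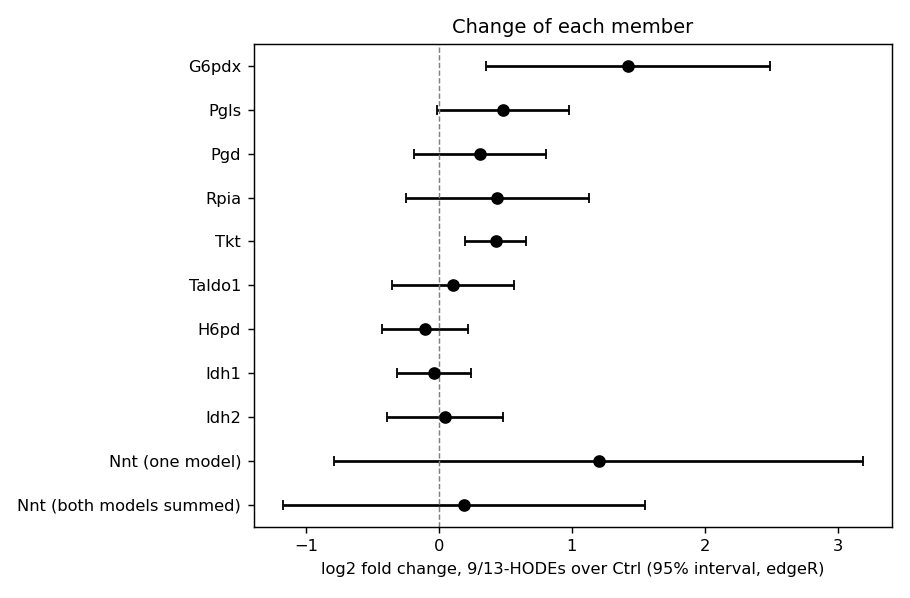
Log2 fold change of treated over Ctrl livers (x axis) with its 95% interval from edgeR, for each member and for Nnt with its first model and with both models summed. The intervals of G6pdx and Tkt lie above 0, and those of all other rows include 0.

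Across the 11 models, 2 had an unadjusted p under 0.05 (G6pdx and Tkt, both higher), set beside 7.69% of all tested models in either direction and 4.08% higher, and 0 passed the adjusted threshold by edgeR. By DESeq2, 0 of the models other than the second one of Nnt passed it. Groups without overlap occurred in the same 2 members, both higher, set beside 5.28% of all tested models. With Nnt summed to 1 row, 8 of 10 genes had a positive log2 fold change, against 50.1% of all tested models, and the median was 0.25, against 0.00 for all models. With both Nnt models kept apart the median was 0.31. Members with the widest spread among Ctrl livers were also those with the widest intervals, G6pdx (coefficient of variation 50.7% in Ctrl) and Nnt. For Tkt it was 10.7% in Ctrl and 2.89% after treatment.

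Some of the values depended on single libraries. Over the 9 members other than Nnt, Ctrl replicate 2 was the highest library for 0 and the lowest for 4 (G6pdx, Pgd, Tkt and Idh2), with a mean rank of 1.89 of 6. Ctrl replicate 3 was the lowest for 3 members (Pgls, Rpia and Taldo1) and the highest for 2 (Idh2 and H6pd). The mean ranks of the other libraries lay between 3.67 and 4.22, Ctrl replicate 1 included. The median log2 fold change over the 11 models was 0.15 without Ctrl replicate 2 and 0.50 without Ctrl replicate 1. Without Ctrl replicate 1, 5 of the 11 models had an unadjusted edgeR p under 0.05, where 921 of all models had one. The 5 were G6pdx, Pgd, Tkt and both Nnt models, and summed Nnt had an unadjusted edgeR p of 0.684 there. Without 9/13-HODEs replicate 1 the number was 1 (Tkt), where 897 of all models had such a p.

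**Figure D4:**
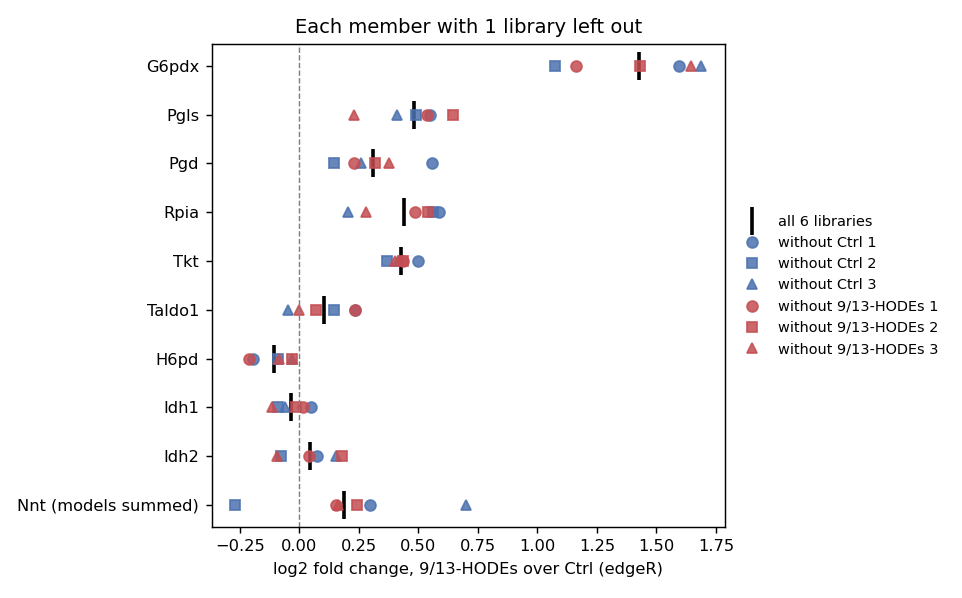
Log2 fold change of each member (x axis) with all 6 libraries (black bars) and with 1 library left out (blue without a Ctrl, red without a treated library, marker shapes for replicate numbers). Tkt stays between 0.37 and 0.50, while Taldo1, Idh1, Idh2 and the summed Nnt models cross 0.

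The remaining genes of the pathway were read from a list beside the members. Of 12 further pentose phosphate genes, 9 were tested, 4 with a positive and 5 with a negative log2 fold change, none with an unadjusted p under 0.05 and a median of -0.04. Rpe, the epimerase that works beside Rpia, had a log2 fold change of -0.28 (95% interval -0.70 to 0.15), and Shpk, the kinase of sedoheptulose, 0.14 (95% interval -0.12 to 0.40). Tktl1 and Tktl2, the relatives of Tkt, had 0 counts.

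Of 13 other genes of NADPH supply, 11 were tested, with a median log2 fold change of 0.03 and 1 with an unadjusted p under 0.05, beside 7.69% of all tested models. Me1, the cytosolic malic enzyme, had 36.4, 16.8 and 41.1 FPKM in Ctrl and 35.9, 21.7 and 29.7 FPKM after treatment. Ctrl replicate 2 was again the lowest, the groups overlapped, and the log2 fold change was -0.02 (95% interval -0.83 to 0.78). Mthfd2l, a mitochondrial enzyme of folate metabolism, had 0.135 ± 0.0155 FPKM (SD, n = 3) in Ctrl and 0.230 ± 0.0297 FPKM (SD, n = 3) after treatment, without overlap. Its log2 fold change was 0.83, with an unadjusted edgeR p of 0.0150 at a level close to the expression filter. Mthfd2 had 0.191 and 0.115 mean FPKM in Ctrl and treated livers, with a log2 fold change of -0.68 (95% interval -1.56 to 0.20). In this list 1 gene was higher without overlap and 2, Mthfd2 and Glud1, were lower, beside 15.1% of all tested models in either direction. Glud1 had 124 and 106 mean FPKM in Ctrl and treated livers, with a log2 fold change of -0.16.

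Around the glucose 6-phosphate that G6pdx uses, the listed 10 genes of its entry, regulation and branches had 9 positive log2 fold changes and a median of 0.15. Gpi1, which interconverts glucose 6-phosphate and fructose 6-phosphate at the branch point, had 63.7, 50.5 and 60.0 FPKM in Ctrl and 95.4, 93.3 and 80.0 FPKM after treatment. All treated livers were above all Ctrl livers, with a log2 fold change of 0.69 (SE 0.111) and an adjusted p of 0.365 by edgeR's quasi-likelihood test. G6pc, which releases glucose from glucose 6-phosphate, had 37.2, 31.6 and 44.9 FPKM in Ctrl and 50.2, 68.5 and 61.9 FPKM after treatment. Its groups did not overlap either, with a log2 fold change of 0.74 (95% interval 0.37 to 1.11) and an adjusted p of 0.649 by edgeR's quasi-likelihood test. Both had an unadjusted edgeR p under 0.05 and no other gene of this list did, which makes 2 of 10 beside 7.69% of all tested models. The paper had reported G6pc as higher from these same libraries, so this count is not independent of the data. Groups without overlap occurred for these 2 higher genes and for 1 lower gene, Pgm1, beside 15.1% of all tested models in either direction. Pgm1 had a mean of 66.9 FPKM in Ctrl and 57.3 FPKM after treatment, with a log2 fold change of -0.15.

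Genes of lipid synthesis and of redox defence were read as 2 lists, which hold users of NADPH but are not limited to them. In lipid synthesis, 7 of 13 had a positive log2 fold change and none an unadjusted p under 0.05 (median 0.06), with 0.78 for the fatty acid synthase gene Fasn (95% interval -0.11 to 1.67) and -0.19 for the chain elongation reductase Hsd17b12. In redox defence, 6 of 12 were positive (median -0.04). Cat, the peroxisomal catalase that binds NADPH, had 611, 553 and 721 FPKM in Ctrl and 502, 507 and 464 FPKM after treatment. Every treated liver was below every Ctrl liver, with a log2 fold change of -0.29 (95% interval -0.56 to -0.01) and an adjusted p of 0.649 by edgeR's quasi-likelihood test. Gsr, glutathione reductase, had 14.7, 12.03 and 13.2 FPKM in Ctrl and 11.2, 11.98 and 10.7 FPKM after treatment, with a log2 fold change of -0.17 (95% interval -0.42 to 0.08). In this list 3 of 12 genes, Cat, Gsr and Akr7a5, were lower without overlap and 0 were higher. Over all tested models, 15.1% did not overlap in either direction. Among 13 tested genes that respond to NRF2, 5 were positive and 8 negative, and 3 had an unadjusted edgeR p under 0.05, beside 7.69% of all tested models. The higher one was Hmox1, heme oxygenase (log2 fold change 0.44, groups without overlap). The lower ones, both without overlap, were Gclc, of glutathione synthesis (log2 fold change -0.32), and Osgin1 (log2 fold change -2.76). Osgin1 had 33.7, 4.29 and 15.2 FPKM in Ctrl and 2.48, 1.79 and 3.1 FPKM after treatment, so Ctrl replicate 2 lay near the treated livers. The 95% interval of Osgin1 was -4.43 to -1.08, with an adjusted p of 0.649 by edgeR's quasi-likelihood test.

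In the list of regulators and genes of lipogenesis, 7 of 9 had a positive log2 fold change and 4, all higher, an unadjusted edgeR p under 0.05, beside 4.08% of all tested models that were higher at this threshold. Elovl6 (1.31) and Pklr (0.56) were among the 4, and the median was 0.49. Thrsp (0.95) was among the 4 as well. The paper had reported Elovl6 and Thrsp as higher from these same libraries, so this count is not independent of the data. In the list of citrate and isocitrate enzymes, 7 of 9 were positive and 1 had an unadjusted p under 0.05 (4.08% of all tested models did so and were higher), the Idh3g subunit of the NAD-dependent isocitrate dehydrogenase (0.44), while Cs, citrate synthase, was at 0.17.

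**Figure D5:**
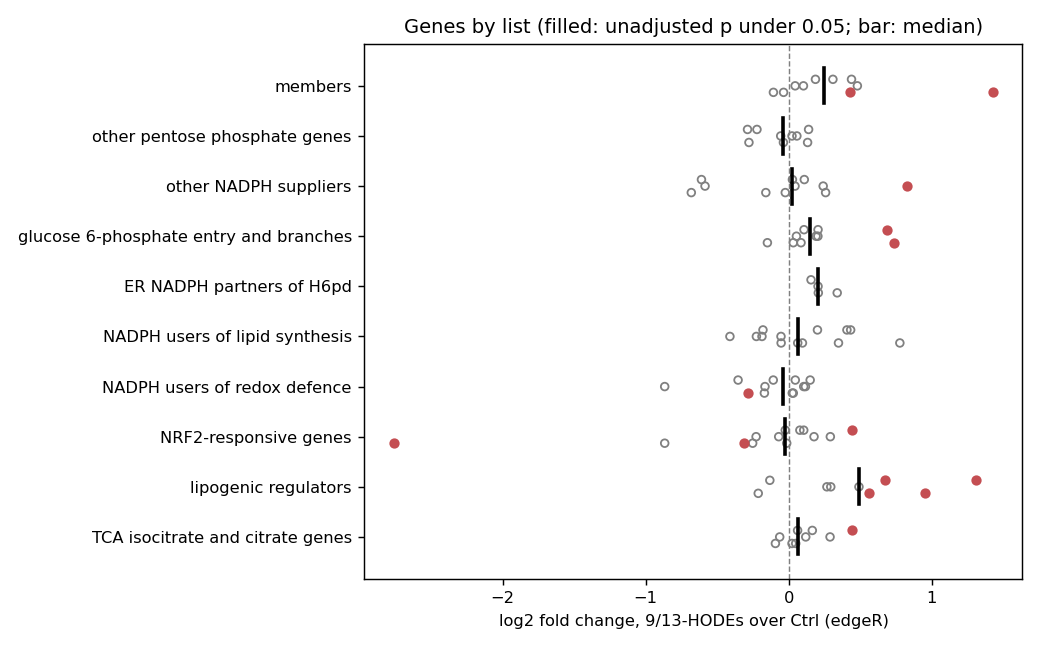
Log2 fold change (x axis) of the tested genes in each list (rows), filled where the unadjusted edgeR p was under 0.05, with the list's median as a black bar and Nnt as the sum of its models. The members' median is 0.25 and that of the other pentose phosphate genes -0.04.

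The liver label was checked on 8 hepatocyte markers, whose summed FPKM was 61200 to 67300 in Ctrl and 57200 to 67500 in treated livers. Alb, Apoa1 and Ttr supplied most of each sum. Of the 8, 6 had positive log2 fold changes, while Serpina1a and Cps1 were lower without overlap (unadjusted edgeR p of 0.0491 for Cps1). Apob ran from 7.74 to 93.3 FPKM over the libraries, with high and low livers in both groups. Summed markers of several other cell types were also higher in some treated livers. Of 7 neutrophil markers 4 were tested, all 4 with positive log2 fold changes (median 1.54), and Ly6g had 0 counts. Their summed FPKM was 1.59, 1.16 and 3.67 in Ctrl and 3.13, 12.5 and 3.83 after treatment, with treated replicate 2 the highest. Of 9 markers of Kupffer cells and macrophages, 7 had positive log2 fold changes, with sums of 42.8 to 54.3 FPKM in Ctrl and 47.8 to 59.9 FPKM after treatment. Without overlap, Timd4 and Lyz2 were higher and Adgre1 was lower. Adipocyte markers (3 of 7 tested, all 3 with positive log2 fold changes) summed to 4.39, 3.57 and 1.35 FPKM in Ctrl and 7.68, 3.22 and 6.13 FPKM after treatment. For Fabp4 the groups did not overlap and the unadjusted edgeR p was 0.00641. Over all tested models, 4.08% were higher with an unadjusted edgeR p under 0.05 and 5.28% were higher without overlap. Retn had 0 counts in every Ctrl library and 61, 8 and 10 after treatment. It passed the expression filter through the treated libraries alone, so its lack of overlap is not read as a result. Erythroid markers (5 of 7 tested, all 5 with negative log2 fold changes) summed to 114 to 249 FPKM in Ctrl and 122 to 174 FPKM after treatment. Among them Alas2 was lower without overlap, with an unadjusted edgeR p of 0.0317. Lymphocyte, endothelial, stellate cell and cholangiocyte sums overlapped between groups. Of 7 endothelial markers 6 had positive log2 fold changes, and 1, Lyve1, was higher without overlap (log2 fold change 1.06, unadjusted edgeR p 0.0145). Of 6 proliferation genes 3 were tested and all 3 had negative log2 fold changes, -0.56 for Cdk1 and -0.07 for Pcna among them. The part of these cells in the G6pdx and Tkt values was not tested.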

How the data were processed

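Poly(A)-selected RNA of 6 livers was sequenced as paired-end reads. The authors deposited 1 table with whole-number read counts per gene model and library, not normalized, and the authors' FPKM values, scaled by gene length and depth. The submitters' processing notes list, in no stated order, StringTie 1.3.4d, HISAT2 2.0.4, edgeR, DESeq2, UMI-tools and cutadapt 1.9. The genome build and the handling of strand, overlapping genes and molecular identifiers are not given in the sources used here. IDs and coordinates were those of GENCODE M21 (GRCm38) for 55141 of 55401 models, of which 54928 starts and 52049 ends were equal. Member coordinates are those of the table, and 10 of 11 models had the start and end of M21.

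Models with a mean FPKM of at least 0.1 were tested on the deposited counts with edgeR 4.0.16 (TMM scaling, quasi-likelihood test, all 6 libraries in 1 fit, Benjamini-Hochberg over 14741 models, R 4.3.3). The fit was tested on simulated data. Counts of genes called by unadjusted p are to be read beside the share of all models called. Replicates are single mice. The edgeR p-values set the difference between groups against the spread between 3 mice per group, moderated over all tested models. At these depths, precision was set by that spread (common biological coefficient of variation 0.36) more than by counting. DESeq2 1.42.0, limma 3.58.1 on log2(FPKM + 0.1) and log2(FPKM + 1), other scalings and filters, a replicate block and each library left out were the alternatives. Summing the Nnt models, and counting members with an unadjusted p under 0.05 under the alternatives, were added after seeing the data. The text names all members, the 2 genes of smallest p in each list other than the markers, and Me1, Hsd11b1 and Slc37a4. Ikbkg, Fam129c, Gm17823, G6pd2, Tktl1, Tktl2, Txnrd1, Nadk, Hmox1, Thrsp, Pgm1, Akr7a5, Glud1 and marker genes were named after their values were seen. Members and lists were chosen with earlier results of these data known. Near-identical copies came from a search of transcripts with BLAST+ 2.17.0 (at least 90% identity over 150 bases). Promoter windows are RefSeq's, in GRCm38.p6.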

Additional observations from a re-analysis of the deposited data

How the results depend on the processing

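G6pdx (1.01 to 1.69) and Tkt (0.27 to 0.50) kept a positive log2 fold change under every alternative run, Pgls, Pgd and Rpia as well, and H6pd a negative one. Apart from the second Nnt model, for which no fold is given, no member passed the adjusted threshold under any of them. The first Nnt model did not change sign. The cause of the following changes was not tested. Direction turned for Idh2 with total counts (-0.045), limma on log2(FPKM + 0.1) (-0.025) and log2(FPKM + 1) (-0.025), FPKM scaled to TPM (-0.125) and the ratio of mean FPKM (-0.036), and for Taldo1 with TPM (-0.035), a scale on which the median of all tested models was -0.141, against -0.058 for FPKM and 0.001 in edgeR. With 1 library left out, the log2 fold change ran from -0.05 to 0.23 for Taldo1, from -0.115 to 0.048 for Idh1, from -0.10 to 0.18 for Idh2 and from -0.27 to 0.70 for the summed Nnt models. The members' median was 0.17 with limma on log2(FPKM + 1), 0.155 with TPM, and 0.15 to 0.50 with 1 library left out. Of the 11 models, those with an unadjusted p under 0.05 numbered 1 to 5 with 1 library left out, the 5 including both Nnt models. Over all models, those past the adjusted threshold numbered 89 by DESeq2, 0 with the replicate block and 3 to 16 with 1 library left out (5 without Ctrl replicate 2, 16 without Ctrl replicate 3). Models past the fold and p rule numbered 209 at a mean FPKM of at least 1 and 252 at a log2 ratio of 1. Replicate numbers did not pair the samples: deviations of same-numbered libraries correlated at 0.007, -0.028 and -0.038. With the replicate block, the log2 fold change was 1.52 for G6pdx, 0.43 for Tkt and 0.52 for the summed Nnt models. The members' median was 0.34. In that fit 3 of the 11 models had an unadjusted edgeR p under 0.05, where 892 of all models had one. The 3 were G6pdx, Tkt and the second Nnt model, which had counts in Ctrl replicate 3 alone. At a mean FPKM of at least 1, Rpia was not tested. Apart from Nnt, the smallest count behind a member was 179, for G6pdx in Ctrl replicate 2.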

Other observations

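Txnrd1, the NADPH-dependent thioredoxin reductase, had 4541, 256 and 5031 counts in the 3 Ctrl livers and 194, 5039 and 187 counts in the 3 treated livers. The 6 livers fell at a high and a low level, 2 Ctrl and 1 treated liver high and the rest low, so the split did not follow the groups. The log2 fold change was -0.87 (95% interval -4.33 to 2.60). The low Ctrl liver, replicate 2, was also the lowest for Nnt, whereas the low treated livers were not low for Nnt. Nadk, of the other NADPH supply genes, varied between single livers as well. It had 12476, 10490 and 2231 counts in Ctrl and 10990, 1073 and 13585 after treatment. Its low livers, Ctrl replicate 3 and treated replicate 2, were high for Txnrd1. Txnrd1 and Nadk were chosen after their values were seen.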
